A study of Mus musculus with 3 samples.

Results

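Transcripts of 10 genes that sense or degrade nucleotides outside the cell were followed in mouse macrophages from heart, liver and kidney. The genes are the P2Y receptors P2ry2, P2ry6, P2ry12, P2ry13 and P2ry14, the P2X receptors P2rx4 and P2rx7, the ectonucleotidases Entpd1 and Nt5e, and the adenosine receptor Adora2b. They were picked by symbol, with the longest coding RefSeq transcript standing for each gene, and all 10 were found among the 24453 gene symbols measured. RNA sequencing was done on 1 library each of cardiac macrophages, Kupffer cells (macrophages that live in the liver sinusoids) and renal macrophages from C57BL/6 mice 8 weeks of age, with no treatment in any group. Cells were sorted for the surface proteins CD11b and F4/80 and against Ly6G and Ly6C, and RNA was amplified with a kit for low input. How many animals went into each library is not given in the sources used here. Since no tissue has a replicate, the spread between animals is unknown and the comparisons below describe 3 libraries only.

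ATP, ADP, UTP and UDP leave damaged or activated cells and act on neighbouring cells through purinergic receptors. P2X receptors are ion channels opened by ATP, whereas P2Y receptors are coupled to G proteins and differ in the nucleotide they bind. Ectonucleotidases end the signal: CD39, encoded by Entpd1, takes ATP and ADP down to AMP, and CD73, encoded by Nt5e, turns AMP into adenosine, which then acts on adenosine receptors. In macrophages these receptors are known for steering motility, uptake of particles and activation of the inflammasome.

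Levels are given as RPKM, the reads on a gene per kilobase of its exons and per 1000000 reads counted, so that genes of different length can be compared. Depth over all transcripts, recovered from the values, was 14460623, 16743414 and 15550837 reads for the heart, Kupffer cell and kidney library. In these totals a read on exons shared by several transcripts counts once for each. With 1 transcript per gene the reads were 8751973, 10373693 and 9485371. Intervals of levels are exact 95% Poisson intervals and intervals of ratios are exact 95% Clopper-Pearson intervals, and both cover counting error only. All 7 macrophage marker genes checked, among them Adgre1 and Csf1r, had at least 1 RPKM in every library, with sums of 1799, 1839.5 and 1700.3 RPKM. Of 7 Kupffer cell markers, Clec4f stood at 571.9 RPKM in the Kupffer cell library and had 0 reads in both others, as had Cd5l and Marco. All 7 had at least 1 RPKM in the Kupffer cell library, 4 in the heart library and 2 in the kidney library. Their sums were 197, 2102.7 and 9.36 RPKM in the heart, Kupffer cell and kidney library. In the heart library Timd4 reached 147.6 RPKM and Vsig4 41.45 RPKM. Transcripts of other cells were present too. In the heart, Kupffer cell and kidney library 4 monocyte markers summed to 147, 352 and 11.3 RPKM. At least 1 RPKM was reached by 4, 3 and 2 of them. In the same order 4 markers of conventional dendritic cells summed to 273, 1.62 and 14.2 RPKM, with Cd209a at 270.1 RPKM in the heart library. The part of these cells in the levels below was not tested. The 5 kidney tubule markers summed to 281 RPKM in the kidney library and 0 in both others, with Umod at 215.3 RPKM. In the Kupffer cell library 4 hepatocyte markers summed to 127 RPKM, 5 endothelial markers to 141 RPKM and 5 T and NK cell markers to 56.5 RPKM. In bulk samples fewer cells of a type and less RNA per cell cannot be told apart.

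Of the 8 receptor genes, 5 are described here as groups with opposite order across the tissues. P2ry12 and P2ry13, both receptors for ADP, were highest in Kupffer cells and lowest in the kidney library. P2ry6, the UDP receptor, and the ATP channels P2rx4 and P2rx7 had the reverse order, highest in the kidney library and lowest in Kupffer cells, with the heart library between them in all 5 genes. P2ry2 had the order of P2ry6 at few reads, whereas P2ry14 was lowest in the heart library and Adora2b had reads only there. Entpd1 was highest in Kupffer cells, and Nt5e was not detected in any library.

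**Figure D1:**
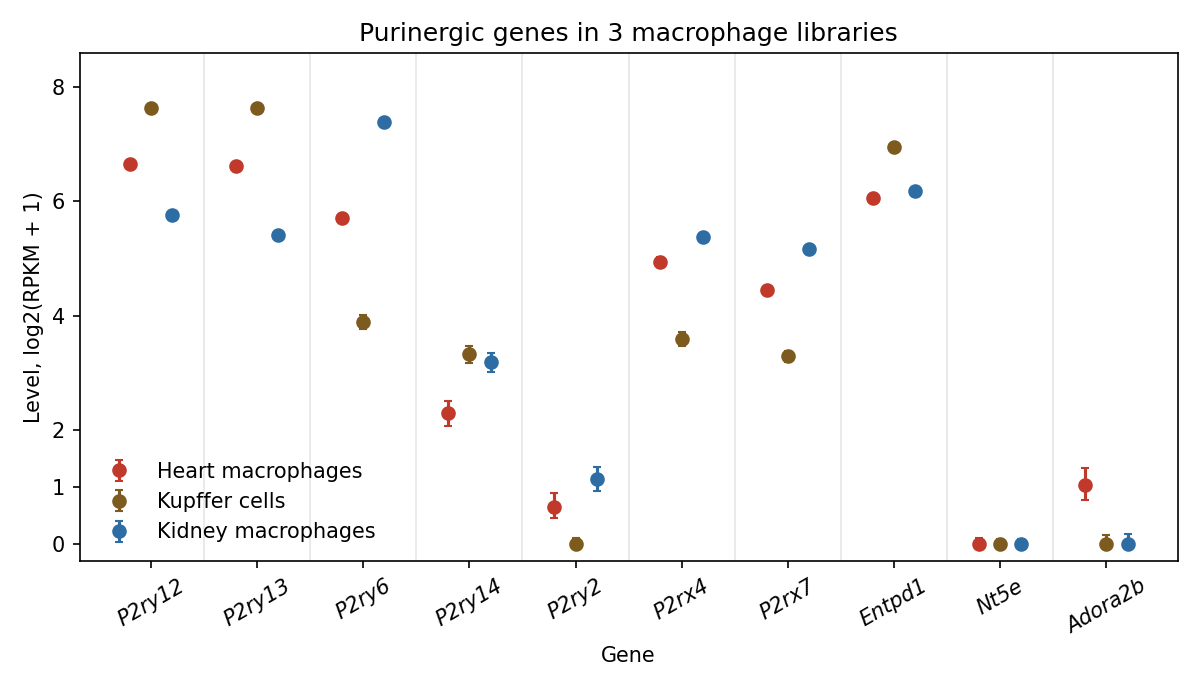
Level of each of the 10 genes on the log2(RPKM + 1) scale, 1 point per library with its 95% counting interval. P2ry12 and P2ry13 are highest in Kupffer cells, P2ry6, P2rx4 and P2rx7 are highest in the kidney library, and Nt5e lies at 0 in all 3 libraries.

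P2ry12 encodes the ADP receptor known from platelets and microglia, where it guides process movement towards sites of damage. Its level was 100.4 RPKM in the heart library (97.1 to 103.9, 3387 reads), 197.3 RPKM in Kupffer cells (192.9 to 201.8, 7704 reads) and 53.5 RPKM in the kidney library (51.1 to 55.9, 1939 reads). No intervals overlapped. The level in Kupffer cells was 1.96-fold that in the heart library (1.89 to 2.05) and 3.69-fold that in the kidney library (3.51 to 3.88). The platelet genes Itga2b, Gp9 and Gp1bb had 0 reads in the heart and Kupffer cell libraries and at most 0.319 RPKM in the kidney library. Of the 6 platelet markers only Pf4 (364.7, 249.2 and 220.1 RPKM in the order heart, Kupffer cells, kidney) and Ppbp (54.3, 0 and 1.436 RPKM) passed 1 RPKM in any library, and Treml1 was at 0 in all.

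P2ry13, which encodes another ADP receptor, was nearly as abundant. It stood at 97.6 RPKM in the heart library (94.5 to 100.9), 198.8 RPKM in Kupffer cells (194.6 to 203.1) and 41.7 RPKM in the kidney library (39.7 to 43.8). Again the counting intervals lay apart, and Kupffer cells exceeded the heart library 2.04-fold (1.96 to 2.12) and the kidney library 4.77-fold (4.52 to 5.03). Differences of 2-fold were common. On the log2(RPKM + 1) scale 42.9% of all genes compared were at least 2-fold apart between the heart library and Kupffer cells. Between the kidney library and Kupffer cells 41.9% were. Within a library the ratio of P2ry13 to P2ry12 does not depend on the scaling between libraries. It was 0.972 in the heart library (0.927 to 1.02) and 1.01 in Kupffer cells (0.977 to 1.04), and lower in the kidney library at 0.78 (0.73 to 0.834).

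P2ry12, P2ry13 and P2ry14 are neighbours on the minus strand of mm10 chromosome 3, inside the span of Med12l, a Mediator subunit gene on the opposite strand (59005825 to 59318682). P2ry12 covers 59216271 to 59262831, P2ry13 covers 59207894 to 59210882 and P2ry14 covers 59114623 to 59131328. In the GENCODE M21 annotation 5.39 kb separate P2ry13 from P2ry12. Med12l itself stood at 0.108, 0.89 and 0.353 RPKM in the heart, Kupffer cell and kidney library, and shares 0.353% of the exon bases of P2ry12. Another gene of the cluster, Gpr171, a receptor known from lymphocytes, was far below P2ry12 and stood at 14.01 and 11.2 RPKM in the heart and Kupffer cell libraries with 0 reads in the kidney library.

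The promoters of 2 pairs of neighbours whose levels moved alike are printed to show what stands before them: P2ry12 and P2ry13 on chromosome 3, and P2rx7 and P2rx4 on chromosome 5. Each window runs from 250 bases before to 50 bases after the start site in RefSeq (GRCm38.p6), which held 15 windows for 9 of the 10 genes. The P2ry12 window, chr3:59262936-59263235 on the minus strand, starts from a RefSeq site upstream of the transcript end in the deposited table. The P2ry13 window is chr3:59210833-59211132 on the minus strand, the P2rx7 window chr5:122643677-122643976 and the P2rx4 window chr5:122707294-122707593, both on the plus strand. Capitals mark matches on either strand to 4 short motifs, which do not overlap each other here. The core of the purine-rich box bound by PU.1 was searched as GAGGAA. The site of the factor AP-1 was searched as TGANTCA, the TATA box as TATAAA and the GC box as GGGCGG.
P2ry12: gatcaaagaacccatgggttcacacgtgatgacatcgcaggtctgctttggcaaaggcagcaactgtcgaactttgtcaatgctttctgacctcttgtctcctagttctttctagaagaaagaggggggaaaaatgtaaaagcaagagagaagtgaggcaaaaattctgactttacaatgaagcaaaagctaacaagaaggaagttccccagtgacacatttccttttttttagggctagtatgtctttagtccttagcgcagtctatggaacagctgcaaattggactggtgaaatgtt
P2ry13: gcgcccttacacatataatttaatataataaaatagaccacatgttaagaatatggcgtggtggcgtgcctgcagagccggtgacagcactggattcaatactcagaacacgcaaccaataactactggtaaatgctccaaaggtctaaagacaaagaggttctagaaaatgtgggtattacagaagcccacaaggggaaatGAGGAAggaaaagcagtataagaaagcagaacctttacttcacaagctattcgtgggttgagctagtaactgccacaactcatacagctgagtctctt
P2rx7: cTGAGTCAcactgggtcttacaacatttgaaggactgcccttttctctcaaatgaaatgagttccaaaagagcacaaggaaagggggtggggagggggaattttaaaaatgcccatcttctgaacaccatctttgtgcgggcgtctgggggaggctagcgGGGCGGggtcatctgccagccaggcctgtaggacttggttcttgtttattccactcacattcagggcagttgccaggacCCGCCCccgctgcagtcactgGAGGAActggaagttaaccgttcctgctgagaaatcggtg
P2rx4: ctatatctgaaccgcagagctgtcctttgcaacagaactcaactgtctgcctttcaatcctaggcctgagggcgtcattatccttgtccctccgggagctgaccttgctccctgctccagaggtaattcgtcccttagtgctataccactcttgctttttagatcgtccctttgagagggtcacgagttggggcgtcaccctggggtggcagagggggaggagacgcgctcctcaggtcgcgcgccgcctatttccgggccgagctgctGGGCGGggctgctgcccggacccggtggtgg
The P2ry12 and P2ry13 windows were both 42.3% G and C, below the median of 52.7% over 32851 promoter windows, while P2rx7 had 53.3% and P2rx4 60.3%. P2ry13 held 1 GAGGAA, and P2rx7 held 1 GAGGAA, 1 TGANTCA and 2 GGGCGG, while P2rx4 held 1 GGGCGG. Another P2rx7 window, chr5:122650133-122650432, is not printed. It had 51.7% G and C and held 1 GAGGAA and no match to the other motifs. No match was found in the P2ry12 window, which says only that these letters are not in it. Over all windows 28.3% held GAGGAA, 7.81% TGANTCA, 13.6% TATAAA and 35.7% GGGCGG. A match describes letters and is no evidence of binding.

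P2ry6 encodes the receptor for UDP, known from microglia for triggering phagocytosis. Among the receptors of the 10 genes with at least 10 RPKM in some library, it had the largest ratio between tissues. Its level was 51.3 RPKM in the heart library (48.7 to 54.0, 1418 reads), 13.8 RPKM in Kupffer cells (12.6 to 15.2, 442 reads) and 166.2 RPKM in the kidney library (161.6 to 170.9, 4942 reads). The kidney library thus exceeded Kupffer cells 12-fold (10.9 to 13.3) and the heart library 3.24-fold (3.05 to 3.44), and the heart library exceeded Kupffer cells 3.71-fold (3.34 to 4.14). P2ry6 lies on chromosome 7, 100937634 to 100964366, beside P2ry2, and none of its exon bases are shared with another annotated gene.

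The opposite orders changed which receptor led in each library. In Kupffer cells the level of P2ry12 was 14.3 times that of P2ry6 (13 to 15.8), in the heart library 1.96 times (1.84 to 2.09), and in the kidney library 0.322 times (0.305 to 0.339). P2ry12 and P2ry13 together made up 90.3% of the summed RPKM of the 8 receptors in Kupffer cells, 64.9% in the heart library and 27.5% in the kidney library. P2ry6 made up 3.15%, 16.8% and 48.0% in the order Kupffer cells, heart, kidney. The summed level itself was 305.4, 438.8 and 346.4 RPKM in the heart, Kupffer cell and kidney library.

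**Figure D2:**
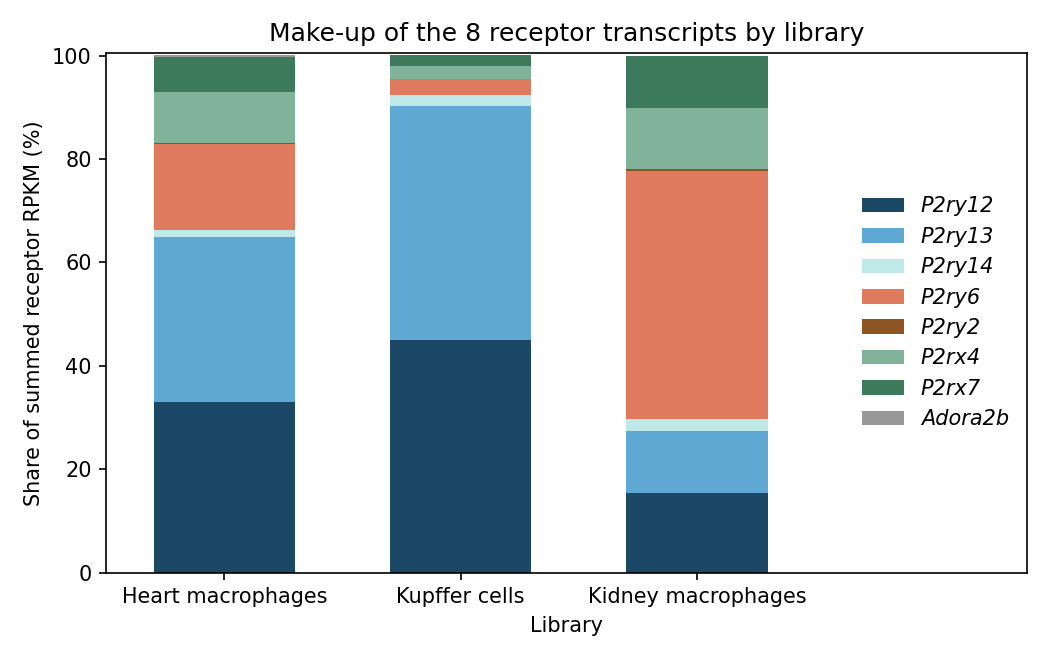
Share of each of the 8 receptor genes in their summed RPKM, 1 bar per library, each bar adding to all of the sum. P2ry12 and P2ry13 take 90.3% in Kupffer cells and 27.5% in the kidney library, where P2ry6 takes 48.0%.

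P2ry14 encodes a receptor for UDP-glucose and related sugars and was low in all tissues. It stood at 3.89 RPKM in the heart library (3.21 to 4.68, 112 reads), 9.03 RPKM in Kupffer cells (8.04 to 10.1, 301 reads) and 8.08 RPKM in the kidney library (7.11 to 9.15, 250 reads). Kupffer cells and the kidney library did not differ beyond counting error, with a ratio of kidney to Kupffer cells of 0.894 (0.753 to 1.06). The heart library was the lowest, with Kupffer cells at 2.32-fold (1.86 to 2.91) and the kidney library at 2.08-fold (1.65 to 2.62) its level. All 8 transcripts of the gene gave similar values, from 3.86 to 4.504 RPKM in the heart library.

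P2ry2 encodes a receptor for ATP and UTP known for find-me signals of dying cells, and was near the limit of detection. It had 25 reads in the heart library (0.575 RPKM, 0.372 to 0.849), 0 reads in Kupffer cells and 56 reads in the kidney library (1.198 RPKM, 0.905 to 1.556). With a floor of 3 reads in the Kupffer cell library, the ratio to it was 9.65 for the heart library and 20.1 for the kidney library. These ratios leave out counting error and are no lower bounds. The 5 kidney tubule markers, summed above, were found in the kidney library only. At least 1 RPKM was reached there by 2 of them, Umod and Slc12a1 (63.4 RPKM). The part of tubule cells in the P2ry2 level of the kidney library was not tested.

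P2rx4 and P2rx7 encode ATP-gated channels, and P2X7 is known for starting the release of interleukin 1β through the NLRP3 inflammasome. P2rx4 stood at 29.7 RPKM in the heart library (28.1 to 31.5), 11.1 RPKM in Kupffer cells (10.1 to 12.1) and 40.6 RPKM in the kidney library (38.7 to 42.6). Kupffer cells were lowest, with the kidney library at 3.67-fold (3.32 to 4.06) and the heart library at 2.68-fold (2.41 to 2.99) their level. P2rx7 stood at 20.7 RPKM in the heart library (19.7 to 21.8), 8.80 RPKM in Kupffer cells (8.17 to 9.46) and 35.0 RPKM in the kidney library (33.7 to 36.4). Here the kidney library reached 3.98-fold (3.67 to 4.33) and the heart library 2.36-fold (2.16 to 2.58) the level of Kupffer cells. Both genes lie on the plus strand of chromosome 5, P2rx7 at 122643911 to 122684289 and P2rx4 at 122707544 to 122729738, 16.1 kb apart. The ratio of P2rx7 to P2rx4 moved less than their levels, at 0.697 in the heart library (0.645 to 0.754), 0.794 in Kupffer cells (0.707 to 0.891) and 0.862 in the kidney library (0.811 to 0.917).

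The level of P2rx7 depended on which of its 5 transcripts was read. The longest, of 4921 bp, gave the values above, whereas the transcript of 1618 bp gave 37.2, 16.7 and 60.3 RPKM in the heart, Kupffer cell and kidney library. The order of the tissues was the same for all 5, and the ratio of kidney to Kupffer cells ranged from 2.30 for the shortest transcript (802 bp) to 4.18. The 4921 bp transcript ends in a long exon, exon 13, at 122680807 to 122684289. A form of 2553 bp begins this exon only at 122683175 and shares the other exons. Subtracting its reads from those of the longest transcript left the reads of the 2368 bp from 122680807 to 122683174. In GENCODE M21 the first 495 bp of this stretch encode the end of the intracellular tail of the full-length channel, and the rest is 3′ untranslated.

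Reads in this stretch were few, and fewest in Kupffer cells. There were 188 reads in the heart library (5.49 RPKM, 4.73 to 6.33), 24 in Kupffer cells (0.605 RPKM, 0.388 to 0.901) and 335 in the kidney library (9.10 RPKM, 8.15 to 10.1). The exons of the 2553 bp form stood at 34.9, 16.4 and 59.1 RPKM in the same order. The stretch therefore reached 15.7% of the level of those exons in the heart library (13.4 to 18.4) and 15.4% in the kidney library (13.7 to 17.3), but 3.69% in Kupffer cells (2.35 to 5.54). The interval of Kupffer cells did not overlap those of the other 2 libraries. The kidney library exceeded Kupffer cells 15-fold in the stretch (9.93 to 23.8) and 3.60-fold in the other exons (3.31 to 3.93). The deposited values do not tell where in the stretch the reads lie, and the microRNA gene Mir8115 sits inside it and covers 1.99% of the annotated P2rx7 exon bases.

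**Figure D3:**
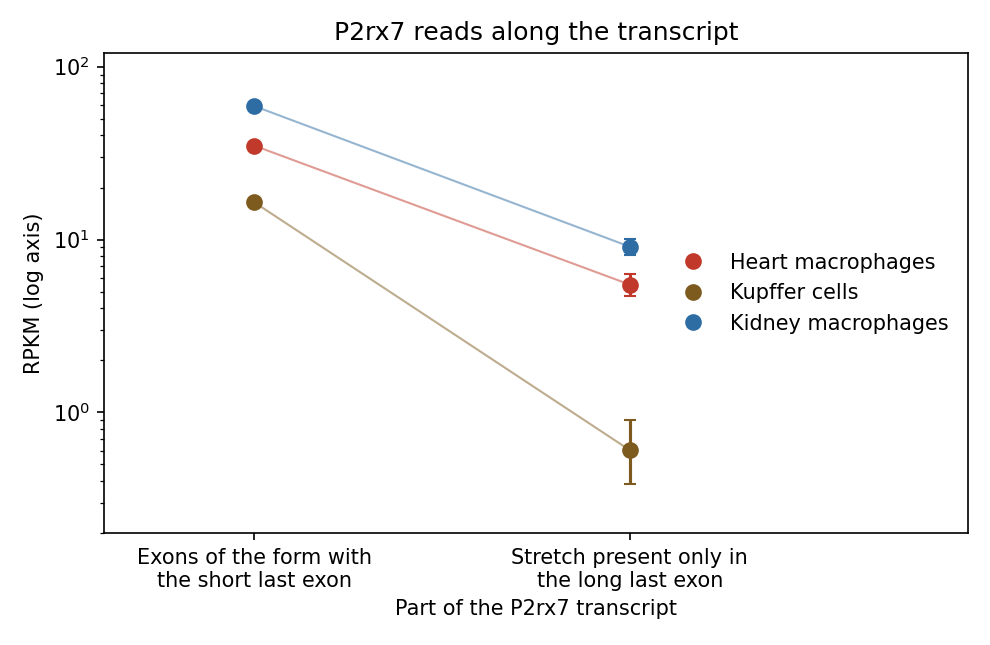
RPKM of P2rx7 on a log axis over the exons of the form with the short last exon and over the 2368 bp found only in the long last exon, 1 line per library, with 95% counting intervals on the right-hand points. The drop to the right is steepest in Kupffer cells, to 0.605 RPKM from 16.4 RPKM.

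Entpd1, the gene of CD39, was abundant everywhere. Its level was 65.7 RPKM in the heart library (63.7 to 67.8), 123.3 RPKM in Kupffer cells (120.7 to 125.9) and 71.3 RPKM in the kidney library (69.2 to 73.3). Kupffer cells exceeded the heart library 1.88-fold (1.81 to 1.95) and the kidney library 1.73-fold (1.67 to 1.79). The heart and kidney libraries differed by 1.08-fold (1.04 to 1.13), and the sign of this difference turned with median ratio scaling. Relative to P2ry12, Entpd1 stood at 0.654 in the heart library and 0.625 in Kupffer cells, but at 1.33 in the kidney library (1.26 to 1.41). CD39 is also known from endothelium and lymphocytes, whose markers were highest in the Kupffer cell library. The 5 endothelial markers summed to 4.34, 141 and 8.46 RPKM and the 5 T and NK cell markers to 11.7, 56.5 and 1.1 RPKM in the heart, Kupffer cell and kidney library, with at least 1 RPKM for 1, 4 and 1 and for 3, 4 and 1 of them. Stab2 was at 0 outside Kupffer cells, Cd3e and Cd3g were at 0 in the heart and kidney libraries, and Klrb1c was at 0 in Kupffer cells. Their part in the level of Entpd1 was not tested.

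Nt5e, the gene of CD73 on chromosome 9 (88327609 to 88372089), had 0 reads in all 3 libraries. A floor of 3 reads corresponds to 0.0581, 0.0502 and 0.0541 RPKM for it in the heart, Kupffer cell and kidney library, so that a level above these was not detected. Adora2b, the low-affinity adenosine receptor, had 28 reads in the heart library (1.052 RPKM, 0.699 to 1.521) and 0 reads in both others. With a floor of 3 reads in the others, the ratio of the heart library was 10.8 to Kupffer cells and 10 to the kidney library. These ratios too leave out counting error and are no lower bounds. The fibroblast and mural markers were highest in the heart library as well. They had at least 1 RPKM for 3, 1 and 0 of 5 genes and sums of 128, 8.46 and 0.623 RPKM in the heart, Kupffer cell and kidney library, with Dcn at 124.6 RPKM in the heart library. Pdgfra and Pdgfrb were at 0 in both other libraries and Col1a2 in Kupffer cells, and their part in the Adora2b reads was not tested.

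Differences were also set against those of all genes with at least 1 RPKM in some library, 11482 in number, on the log2(RPKM + 1) scale. On it 2 log2 units (4-fold) counted as apart. Of the 10 genes, 9 reached 1 RPKM in some library, P2ry2 through the kidney library and Adora2b through the heart library alone. Between the heart library and Kupffer cells 0 of these 9 were at least 4-fold apart, where 12.5% of all genes were, and between the heart and kidney libraries 0 of 9, where 7.5% of all genes were. Between the kidney library and Kupffer cells 2 of 9 were apart, where 12.7% of all genes were. P2ry6 was higher in the kidney library by 3.50 log2 units and P2ry13 differed by -2.23. Of all genes 7.57% were at least 2 log2 units higher and 5.1% at least 2 lower in the kidney library. P2ry6 ranked 128 from the top of the 11482 genes and P2ry13 ranked 463 from the bottom. P2rx7 at 1.88, P2rx4 at 1.78 and P2ry12 at -1.86 fell just short of the 2 log2 units. Over all genes the differences had medians of -0.16 (heart minus Kupffer cells), -0.23 (heart minus kidney) and 0.04 (kidney minus Kupffer cells). Median ratio scaling moved these to 0.00, -0.07 and 0.06, and TPM scaling to -0.02, -0.22 and 0.15.

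**Figure D4:**
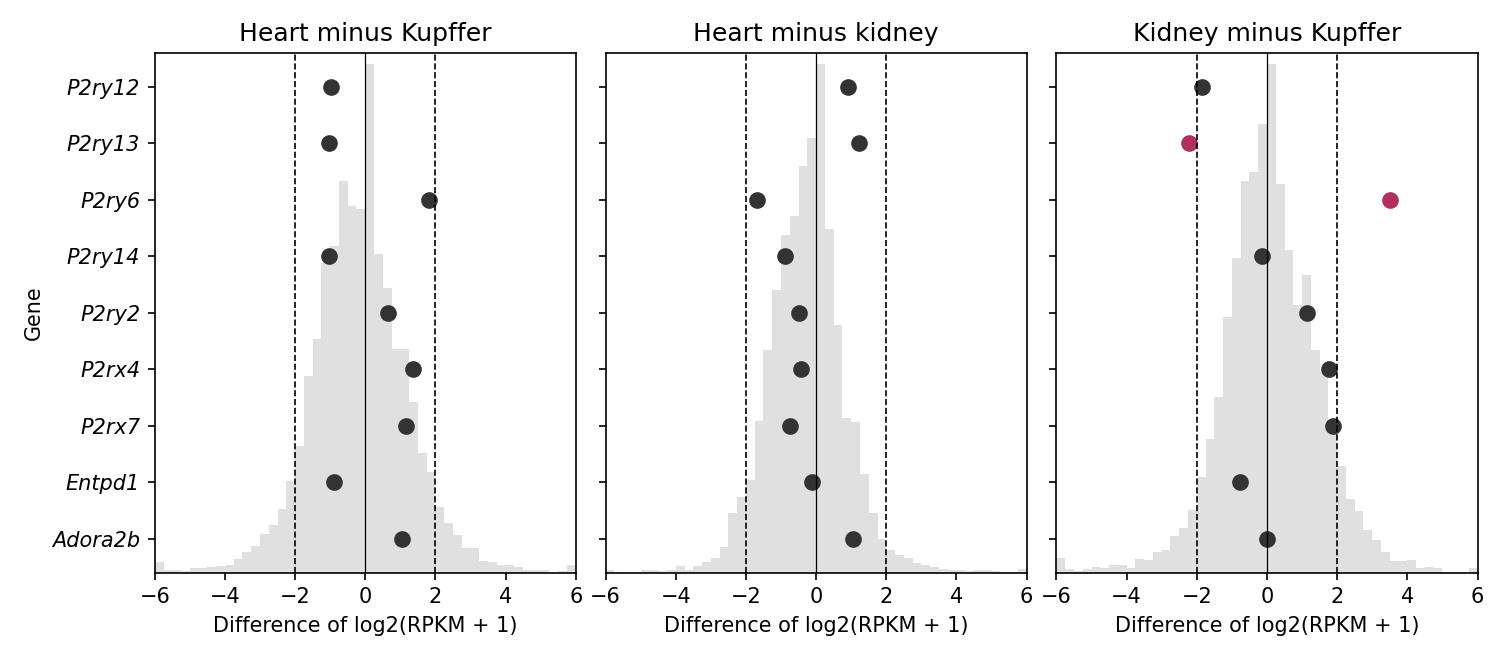
Difference in log2(RPKM + 1) of the 9 genes that passed the filter in each of the 3 comparisons, over grey histograms of the 11482 genes compared, each scaled to its own peak and with values beyond 6 log2 units placed in the outermost bars. Dashed lines mark 2 log2 units, and the coloured points past them are P2ry6 at 3.50 and P2ry13 at -2.23 for kidney minus Kupffer cells.

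The authors' command asked for a limit of 3 tags at a position. Read density was above 2 reads per bp for 4 of the 10 genes in a library. It reached 3.30 reads per bp for P2ry12, 3.33 for P2ry13 and 2.06 for Entpd1 in Kupffer cells, and 2.58 for P2ry6 in the kidney library. As some of these values lie above 3, how the limit acted is unclear. The densest library was in each case the highest, and the part of the limit in the folds of these genes was not tested.

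The genes closest to P2ry6 over the 3 libraries, by Euclidean distance in log2(RPKM + 1), were Tgfbr1 (distance 0.37), Cd69 (0.48) and Mmp12 (0.68). Tgfbr1, a receptor of TGF-β, stood at 63.5, 13.9 and 142.8 RPKM in the heart, Kupffer cell and kidney library. P2ry13 was closest to P2ry12 (0.35), followed by Il18 (0.40) and Ifi205 (0.44). Il18, the gene of the cytokine interleukin 18, stood at 94.7, 204.1 and 55.2 RPKM.

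A further 52 symbols of purinergic signalling covered other receptors, nucleotidases, nucleoside transport, nucleotide release and the output of P2X7. Of these 51 were found, Acp3 being another symbol for Acpp, and 33 reached 1 RPKM in some library. Between the heart library and Kupffer cells 4 of the 33 were at least 4-fold higher and 1 lower in the heart (15.2%, beside 12.5% of all genes). With median ratio scaling these counts were 5 and 0. Between the heart and kidney libraries 5 were higher and 2 lower in the heart (21.2%, beside 7.5%). Between the kidney library and Kupffer cells 3 were higher and 4 lower in the kidney (21.2%, beside 12.7%). The median differences were -0.33, 0.34 and -0.31 log2 units, beside -0.16, -0.23 and 0.04 for all genes.

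Among the other receptors, P2ry1, P2ry4, P2rx2, P2rx3 and P2rx6 had 0 reads in every library. P2ry10, a lysophospholipid receptor of lymphoid cells, stood at 12.9, 8.17 and 0.41 RPKM in the heart, Kupffer cell and kidney library. Gpr34, a lysophosphatidylserine receptor known from microglia and related to P2ry12, stood at 181.4, 26.1 and 112.8 RPKM, and was thus lowest where P2ry12 was highest. Adora3, an adenosine receptor coupled to inhibitory G proteins, stood at 1.489, 3.61 and 14.1 RPKM. It was the only one of 4 adenosine receptor genes, Adora2b included, above the 1.052 RPKM of Adora2b in any library.

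CD39 was not the only surface enzyme with a large level. Cd38, which consumes NAD and forms cyclic ADP-ribose, stood at 147.3, 289.6 and 7.88 RPKM in the heart, Kupffer cell and kidney library. Kupffer cells exceeded the kidney library 36.7-fold (counting interval 33.1 to 40.9, at up to 4.85 reads per bp). Bst1, a related enzyme, stood at 13.1, 0 and 6.69 RPKM. Enpp1, Enpp3, Entpd2, Entpd3, Entpd8 and Alpl all stayed below 3 RPKM. Cd38, P2ry10 and Gpr171 are also known from lymphocytes. Their levels in the kidney library were low, where the 5 T and NK cell markers, given above beside Entpd1, had their lowest sum and Klrb1c stood at 1.103 RPKM. Cd3e and Cd3g had 0 reads in the kidney library and also in the heart library, where P2ry10 and Gpr171 were highest. In the heart, Kupffer cell and kidney library the B cell gene Cd79a stood at 0.524, 34.1 and 0.049 RPKM and Ms4a1 at 2.09, 2.57 and 0 RPKM. The part of lymphocytes in these levels was not tested.

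Of the 11 genes of nucleoside uptake and metabolism 9 reached 1 RPKM in some library, while Slc28a1 had 0 reads in all and Slc28a3 3 reads in the heart library alone. The nucleoside transporter Slc29a1 stood at 54.5, 184.2 and 78.3 RPKM and the lysosomal transporter Slc29a3 at 24.3, 36.7 and 84.0 RPKM, in the order heart, Kupffer cells, kidney. Ada, which deaminates adenosine, stood at 5.44, 27.1 and 7.57 RPKM, and Adk, which phosphorylates it, at 34.1, 43.2 and 33.7 RPKM. Gja1, the gap junction gene that can also pass ATP out of cells, stood at 21.8, 2.83 and 0 RPKM, while the release channel gene Panx1 stayed at 0.836, 2.34 and 1.43 RPKM. Of the 7 genes of the P2X7 output, Nlrp3 stood at 111.7, 29.3 and 26.3 RPKM. It was the only one at least 4-fold apart in any comparison. Casp1, the caspase of the inflammasome, stood at 114.4, 210.8 and 84.1 RPKM, and Il18 followed the same order of tissues. Il1b, the gene of interleukin 1β, stood at 498.3, 379.8 and 393.6 RPKM. The kidney library exceeded Kupffer cells only 1.04-fold (1.01 to 1.07) in Il1b. Read density reached 7.21 reads per bp for Il1b in the heart library, and 3.53 for Casp1 and 3.42 for Il18 in Kupffer cells. Pycard, the adaptor of the inflammasome, had levels of 18.3, 34.0 and 37.8 RPKM. The pore-forming gene Gsdmd had 12.9, 16.1 and 35.3 RPKM, highest in the kidney library like Pycard, and Nek7, an activator of NLRP3, had 30.15, 33.9 and 22.4 RPKM.

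**Figure D5:**
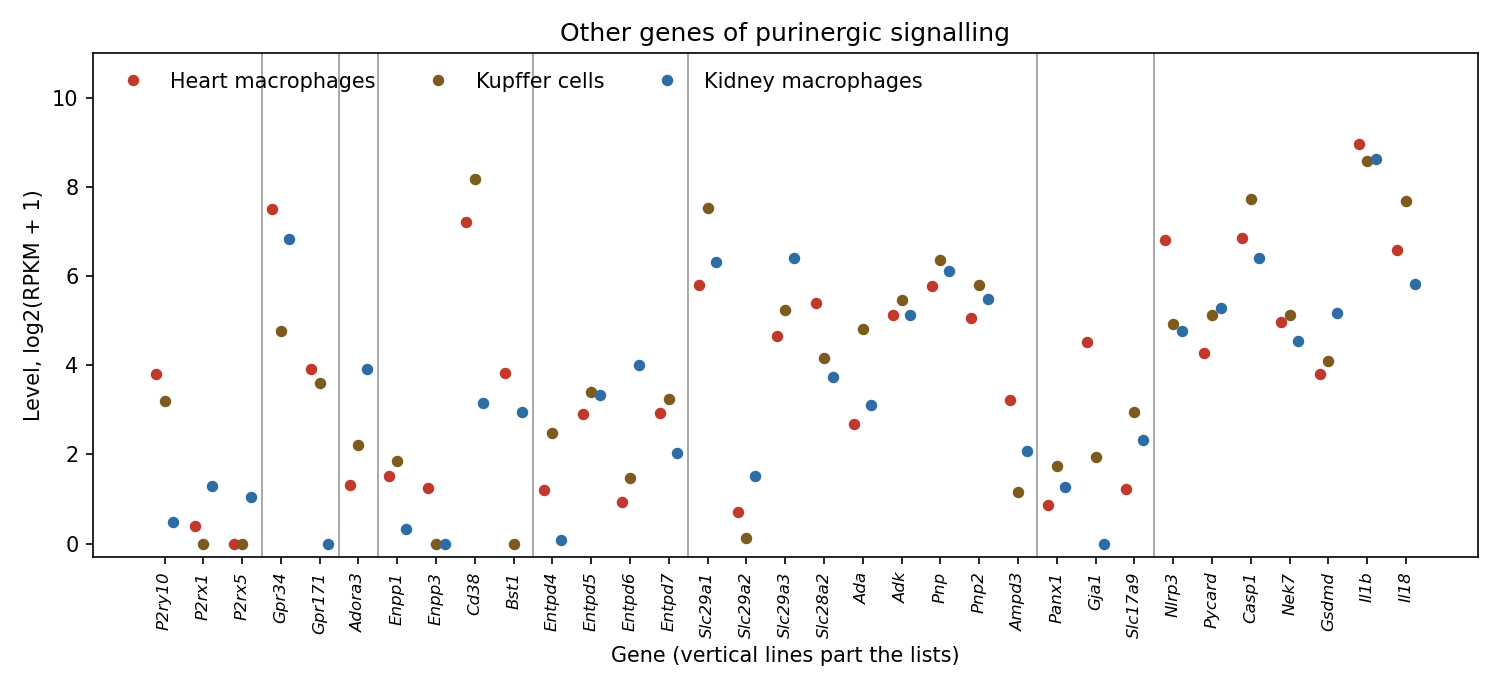
Level in log2(RPKM + 1) of the 33 other genes of purinergic signalling that reached 1 RPKM in some library, 1 point per library, ordered by list and parted by vertical lines. Cd38 is lowest in the kidney library and Gpr34 in Kupffer cells.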

How the data were processed

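RNA was sequenced from 3 libraries, 1 per tissue. The submitters' processing notes name CASAVA, STAR and the build mm10. The deposited values are RPKM for 34711 RefSeq transcripts, made by the authors with HOMER analyzeRepeats.pl per the file headers. Exons were counted on both strands with the option -pc 3, which asks for at most 3 tags at a position. How this limit acted is unclear, since Il1b had 7.21 reads per bp in the heart library. The columns are named FPKM, while the command asks for RPKM.

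Reads were recovered as multiples of the RPKM step, and each low value (500 reads at most) was whole to within 0.1 read. For each symbol the longest coding transcript was kept, as the rule sets it. Genes with at least 1 RPKM in some library were compared on log2(RPKM + 1), with 2 log2 units counted as apart. No test was possible with 1 library per tissue. The calls were tried on counts simulated from the heart library at equal depth, with planted changes larger than 4-fold in genes well above the filter. This covers counting error only. It says nothing of changes near 4-fold, of genes near 1 RPKM or of the spread between animals. The named genes are the 10 members, pathway genes with at least 10 RPKM or at least 4-fold apart, annotated neighbours and the 3 nearest genes; names at or near 0 in the text complete a list and were chosen after their values were seen. Members and lists were chosen with earlier results of these data known. Alternatives were other pseudocounts, scalings, filters and transcripts. Analyses used Python 3.11.15, pandas 2.3.3 and scipy 1.17.1. A neighbouring gene and a B cell marker are not reported here.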

Additional observations from a re-analysis of the deposited data

How the results depend on the processing

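Of the 27 differences of the 9 genes above the filter, 26 kept their direction under 5 settings (pseudocounts of 0.1 and 5, TPM scaling, median ratio scaling and another transcript), counting the 0 of Adora2b between kidney and Kupffer cells. The exception was Entpd1 for heart minus kidney, from -0.12 to 0.09 log2 units with median ratio scaling. A change of pseudocount cannot turn a direction, and no scaling can where 1 library has 0 reads. P2ry6, P2ry12, P2ry13 and Adora2b have 1 transcript each, so another transcript was no check for them. Directions were thus checked mainly by TPM and median ratio scaling. P2ry6 for kidney minus Kupffer cells ranged from 3.19 to 3.68 and P2ry13 from -2.25 to -2.12, so both stayed apart. For heart minus Kupffer cells the count of these genes at least 4-fold apart went from 0 to 2 with a pseudocount of 0.1 (P2ry2 and Adora2b), 2 with TPM scaling (P2ry6 and Adora2b) and 1 with median ratio scaling (P2ry6), where 28.5%, 23.7% and 12.5% of all genes were apart, beside 12.5% as reported. For heart minus kidney it went from 0 to 1 with a pseudocount of 0.1 and to 1 with TPM scaling (Adora2b), where the share of all genes went from 7.5% to 20.5% and 16.4%. For kidney minus Kupffer cells it went from 2 to 4 with TPM scaling and to 0 without genes over 2 reads per bp, which leaves P2ry6, P2ry12, P2ry13 and Entpd1 out. The share of all genes was 24.7% and 12.7% there, beside 12.7% as reported. TPM values were larger than RPKM while the pseudocount stayed at 1, so TPM scaling also acted as a smaller pseudocount. With it the Adora2b difference for heart minus Kupffer cells went from 1.04 to 2.27 log2 units. Counts of pathway genes for heart minus Kupffer cells went from 5 to 8 and 1 with pseudocounts of 0.1 and 5. For heart minus kidney they went from 7 to 11 and 2, and to 11 with TPM scaling. For kidney minus Kupffer cells they went from 7 to 12 and 1, and to 12 with TPM scaling. With the pseudocounts of 0.1 and 5 the shares of all genes were 28.5% and 4.05%, 20.5% and 1.86%, and 27.7% and 3.41% in these 3 comparisons, so that the counts moved with the background. Low genes such as P2ry2 and Adora2b are limited by depth, with 56 reads or fewer. No paired analysis was possible because each tissue has 1 library.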
